A study of Mus musculus with 35 samples.

Results

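Stretches of the genome that RNA polymerase II (Pol II) occupied before lipopolysaccharide (LPS) and at every time sampled after it were described in primary mouse macrophages. Regions up to 100 kb wide in the 7 deposited Pol II lists were joined wherever they shared at least 1 bp, which gave 5971 joined regions. A joined region was kept as a domain if every one of the 7 lists had a region in it, and 707 domains (11.8%) met this rule. The domains were thus chosen by the presence of Pol II regions in all 7 lists, and their Pol II presence, width and score are descriptions. The other 5264 joined regions were held by 1 to 6 lists, 2463 of them by a single list. The lists of all 35 libraries together held 250088 regions.

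Pol II is the enzyme that transcribes protein-coding genes. It gathers at promoters, often pauses a short way into the gene, and then travels through the gene body, so that chromatin immunoprecipitation shows narrow deposits at paused genes and long ones over genes under active elongation. In macrophages LPS, a glycolipid of the bacterial surface, is sensed by Toll-like receptor 4 and redirects transcription within minutes through NF-κB and other factors. Acetylated histone H4 (H4ac) marks active chromatin, and histone H3 trimethylated at lysine 27 (H3K27me3) is the mark laid down by Polycomb. NF-κB subunit p50 lacks a transactivation domain of its own and can bind DNA as a homodimer in resting cells. Its partner p65 carries such a domain and enters the nucleus on stimulation, and ATF3 is a stress-induced transcription factor.

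All cells were bone marrow macrophages (BMMs) grown from wild type female C57BL/6 mice aged 8 to 12 weeks, either unstimulated or given LPS. Pol II was precipitated with antibody clone CTD4H8 from 1 unstimulated library, 2 libraries each at 60 and 240 min of LPS, and 1 each at 120 and 360 min. H4ac had 2 libraries each without LPS and at 60, 120 and 240 min. The p50 subunit had 3 unstimulated libraries and 4 at 60 min. For p65 there was 1 library without LPS, with 2 at 60 min and 2 at 120 min, ATF3 had 3 libraries at 240 min, and H3K27me3 had 1 library each without LPS, at 120, 240 and 480 min, and 1 titled 60 min with a 7 h delay that is also labelled 480 min. Libraries are named here by time and by the letter in their title. Whether letters mark separate animals or cultures is not labelled, and p-values therefore reflect library-to-library spread that may be technical. The lists give a position and a score per region and no counts, so sequencing depth cannot be given and absence from a list means only that no region was listed there. In a bulk population, the share of cells with Pol II at a site and the amount per cell cannot be told apart.

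The Pol II lists differed in length, from 2948 regions at 360 min to 7728 in letter B at 240 min. Regions over 100 kb, from 312 at 360 min to 721 in the unstimulated list, were left out. A narrow covered width, or no cover, can thus stand where a wider region of the list was left out, which was not examined. The unstimulated list had 7436 regions and stands alone on the date in its title, so that date and stimulation cannot be told apart. Letter A at 60, 120 and 360 min shares 1 title date, and letter B at 60 and 240 min another. No 2 lists were identical. Macrophage identity was not checked against marker genes here, because no gene annotation of the files' genome build (mm9) was used.

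The domains were wide. The median joined width was 51980 bp (5th to 95th percentile 8401 to 137871 bp), against 4700 bp for joined regions of 1 to 6 lists, and the domains added up to 42.6 Mb. Width grew with the number of lists that held a region, from a median of 840 bp with 1 list to 27710 bp with 4 and 41820 bp with 6, which joining by itself favours. Chromosome 11 had the most domains, 68 (16.0% of its 425 joined regions), followed by chromosome 7 with 65 (16.4% of 397), where the share over all chromosomes was 11.8%. Chromosome 19 had 19 (10.4% of 183), and none of the 4 joined regions on the Y chromosome was a domain.

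Being held by every list did not mean that every list covered the same bases. The bases common to all 7 lists, called the core here, were present in 646 domains (91.4%) and absent from 61, in which no base was in every list. Cut at region edges, the core lay in 2604 pieces with a median of 760 bp. The core made up 7.85 Mb, or 18.4% of all domain bases. Summed over its pieces in each domain that had a core, its median was 3855 bp (interquartile range 675 to 16935 bp), a median of 8.32% of the domain. In 130 domains the core covered more than 50% of the domain.

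Pol II covered a median of 23890 bp per domain in the unstimulated list. The medians after LPS were 25440 bp at 60 min in letter A, 30080 bp at 60 min in B, 23840 bp at 120 min, 28330 bp at 240 min in A, 32550 bp at 240 min in B and 9290 bp at 360 min. The list of 360 min was therefore the low one, and the interquartile ranges of the other 6 lists overlapped broadly. As a share of domain bases, coverage was 53.8% in the unstimulated list, 54.6% to 68.4% from 60 to 240 min and 37.2% at 360 min. The list of 360 min also kept the largest share of its own covered bases inside the domains, 70.7%, where the other lists kept 33.5% to 47.7%. The mean over the 6 LPS lists of the ratio of median widths to the unstimulated list was 1.04. It was 1.17 without the 360 min list, 0.979 without letter B of 240 min and 0.909 in letter A alone, and above 1 with Pol II regions up to 10 kb (1.34), the better-scored 50% of each list (1.35) and lists of equal length (1.66). Its direction thus depended on the lists and regions used. These widths come from the lists that chose the domains and there is 1 unstimulated library, so they are a description without a test.

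**Figure D1:**
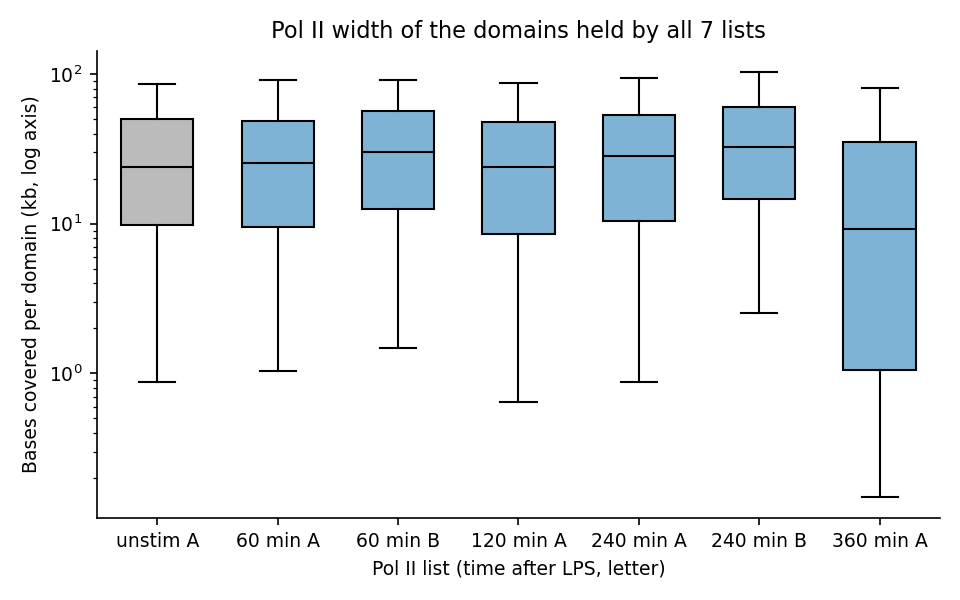
Bases covered by each Pol II list in the 707 domains, in kb on a log axis. Boxes give the interquartile range with the median as a line, and whiskers the 5th to 95th percentile over domains; the unstimulated list is grey, and the 360 min list sits lowest with a median of 9290 bp.

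Domain by domain, the median ratio of covered width to the unstimulated list was 1.03 and 1.08 at 60 min (A and B), 1.01 at 120 min, 1.05 and 1.12 at 240 min, and 0.72 at 360 min. The domains themselves spread far more widely: 136 and 159 domains were at least 2 times wider at 60 min in A and B, while 134 and 93 were at most 50% as wide. As shares of the domains these were 19.2% and 22.5% wider and 19.0% and 13.2% narrower, against 22.3% and 28.9% wider and 24.5% and 14.8% narrower among all joined regions held by the same pairs of lists. Both lists of 60 min were wider than the unstimulated list in 332 domains (47.0%) and narrower in 212 (30.0%). Among all 1531 joined regions held by those 3 lists the shares were 45.1% and 30.7%, close to those of the domains. At 240 min both lists were wider in 358 domains (50.6%) and narrower in 178 (25.2%), against 46.0% and 27.6% of the 1362 joined regions held by those lists. The times share their unstimulated list, so they are given side by side and not compared. The single list of 120 min was wider in 51.6% and narrower in 48.2% of domains (47.8% and 51.7% of all joined regions it shares with the unstimulated list). At 360 min 37.2% of domains were wider and 62.8% narrower (31.3% and 68.5%).

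Libraries of the same time give a comparison for the median ratios. Letter B was a median of 1.04 times as wide as letter A at both 60 and 240 min. The median ratios to the unstimulated list from 60 to 240 min, 1.01 to 1.12, lay on both sides of that value. Letter B was wider than A in 61.4% and narrower in 38.3% of domains at 60 min, and in 60.1% and 39.7% at 240 min. Opposite changes cancel in a median ratio, so it does not give the spread of single domains between letters. Domains at least 2 times wider or narrower between letters were not counted. Within one title date the median ratio was 0.999 from 60 to 120 min and 0.762 from 120 to 360 min in letter A, and 1.03 from 60 to 240 min in letter B. The 360 min list was the narrowest of the 5 letter A lists in 318 domains, against 55 to 162 for each other list. The 240 min list was the widest in 188, against 155 for the unstimulated list and 105 to 142 for each other list. The 360 min list is also the shortest, and the part of list length in its narrow widths was not tested. The comparison with lists of equal length gave the ratio of 1.66 above in place of 1.04. That ratio is a mean over all LPS lists in another set of domains, so it does not give the width of the 360 min list by itself.

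The lists also differed in which bases of a domain they covered. The Jaccard index, the bases shared by 2 lists over the bases of either, was 0.689 between letters A and B at 60 min and 0.665 between them at 240 min. The unstimulated list shared 0.407 to 0.505 with the LPS lists, and the list of 360 min 0.407 to 0.474 with the other 6. Lists at 60, 120 and 240 min shared 0.536 to 0.689 among themselves.

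Individual domains differed widely in how steady their Pol II width was. The ratio of the widest to the narrowest list had a median of 8.58 over domains, and of 3.46 without the 360 min list. It stayed within 2 in 161 domains (22.8%) and exceeded 10 in 342 (48.4%), of which 213 were narrowest at 360 min and 45 in the unstimulated list. The steadiest domain, chr2:44833761-44973080, was covered over 135370 bp in the unstimulated list, 136110 and 138820 bp at 60 min, 138200 bp at 120 min, 137880 and 133630 bp at 240 min and 135830 bp at 360 min. All 7 lists covered 128130 bp of it, the largest core of any domain. The other 4 of the 5 steadiest domains were chr11:79050451-79068310, chr6:38246461-38305980, chr18:61712111-61757890 and chr11:59353671-59385430, with median widths of 17700, 56950, 42620 and 29800 bp.

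The domain with the largest ratio at 60 min was chr18:65531491-65651790. It was covered over 130 bp without LPS, 73640 and 120300 bp at 60 min, 60020 bp at 120 min, 62070 and 85200 bp at 240 min and 60750 bp at 360 min. Among regions up to 100 kb it was listed before LPS only by this narrow stretch, and it stayed wide in every later list. H4ac covered 4850 and 3050 bp of the same domain without LPS (A and B) and 15980 to 30770 bp in the 6 LPS libraries. The H4ac groups thus did not overlap in this domain, which was picked for its Pol II width. How often they are apart in other domains or joined regions was not counted, so whether this is unusual was not tested. At chr13:8793151-8871160, 340 bp without LPS stood against 53240 to 77710 bp from 60 to 240 min and 350 bp at 360 min, so that the 360 min list was as narrow as the unstimulated one. At chr2:23009591-23063090 both 240 min lists were wide, with 53500 and 48960 bp, while the unstimulated, 60, 120 and 360 min lists covered 190 to 610 bp. The best-scored region there ranked 2064 in the unstimulated list and 2193 and 2857 at 240 min. At the chr18 domain it ranked 2646 without LPS and 206 to 469 from 60 to 240 min, and at the chr13 domain 3725, then 1174 to 2493. Ranks are counted within each list and are not scaled to its length.

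Other domains had most of their Pol II width before LPS. At chr19:43731971-43830570 the unstimulated list covered 95880 bp, the 60 min lists 690 and 1210 bp, the 120 min list 22370 bp, the 240 min lists 1220 and 43310 bp, and the 360 min list 220 bp. Letters A and B of 240 min stand far apart here. In the better-scored 50% of each list the less narrowed 60 min list covered 0.483 of the unstimulated width, against 0.0126 with all regions, so most of the difference was not seen among better-scored regions. At chr12:52447411-52560330 and chr2:29987941-30010210, also among the 5 most narrowed at 60 min, that ratio turned to 3.62 and 1.11. The largest narrowing at 240 min, chr17:87826071-87846750, went from 19990 bp without LPS and 20680 and 10080 bp at 60 min to 670 bp at 120 min and 120 to 160 bp afterwards. Both 240 min lists were thus far below both 60 min lists in width. The best-scored region there ranked 271 without LPS, 943 and 638 at 60 min, 2095 and 1053 at 240 min, and 222 at 360 min. With 6715 regions up to 100 kb without LPS and 2636 at 360 min, ranks 271 and 222 are not on a common scale. At chr19:43731971-43830570 the best rank was 756 without LPS and 1608 and 3894 at 60 min. At chr12:52447411-52560330 it was 711, then 2091 and 2587. At chr2:29987941-30010210 it went the other way, from 3348 to 614 and 1136.

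**Figure D2:**
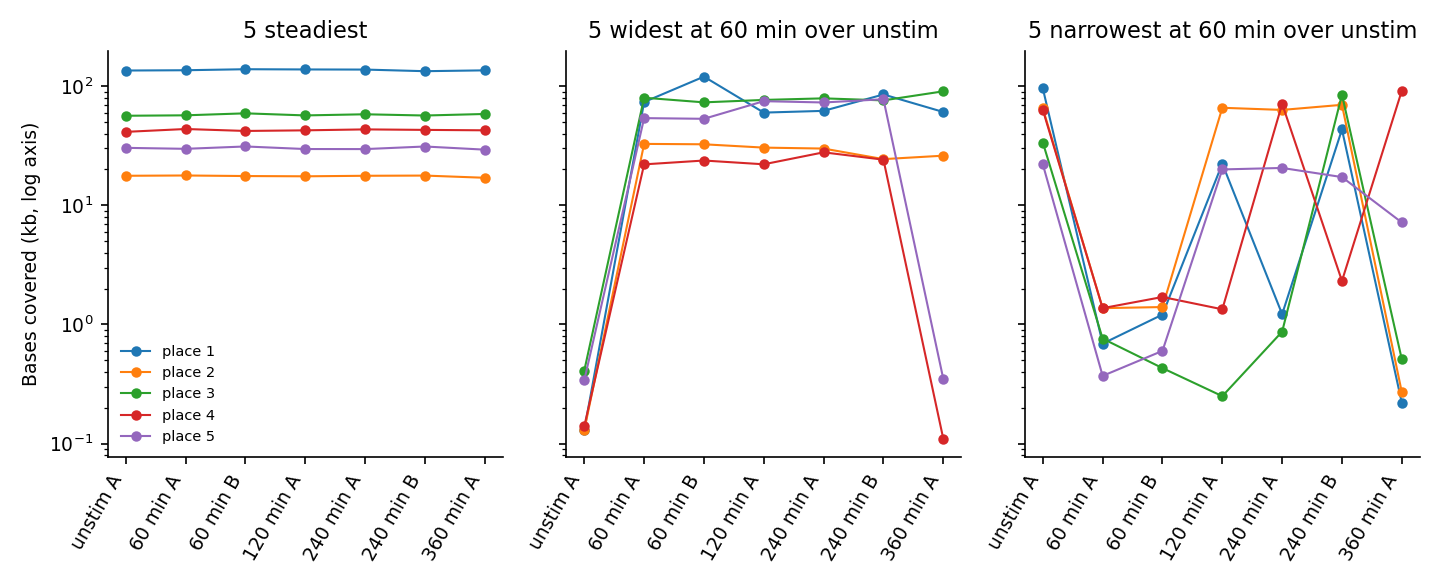
Bases covered (kb, log axis) by each Pol II list in the 5 steadiest domains, the 5 with the largest and the 5 with the smallest ratio at 60 min over unstimulated. Each line is 1 domain and colours give its place in its own panel; the steadiest domain stays between 133630 and 138820 bp in all 7 lists.

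By score, which is the authors' own and was used only to rank regions within a list, the best placed domain was chr5:143656691-143668480, with a median best rank of 3 over the 7 lists. It was narrow and steady, at 8620 to 10870 bp in all lists. The domains chr12:56585001-56594100 and chr11:83314291-83480510 had a best region ranked 191 and 850 in the unstimulated list, and 3 to 11 and 4 to 8 in the 6 LPS lists. The first kept a width of 6440 to 8520 bp throughout. The second covered 33260 bp without LPS and 39130 to 148020 bp after it. The largest domain by median width was chr1:173249091-173645650, whose joined width of 396560 bp held a core of 5030 bp.

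At the edge of the rule, a domain counted however little of it a list covered. In 216 domains at least 1 list covered less than 1 kb, and in 146 of these the narrowest list was that of 360 min. The 3 just inside were each covered over 100 bp at 360 min: chr2:130098961-130110890, chr4:34496841-34563170 and chr4:44022851-44050180. Just outside were the 431 regions held by 6 of the 7 lists. Of these, 68 were held by all 6 LPS lists and had no region up to 100 kb before LPS, and the others lacked an LPS list. Among the 68 was chr13:20876631-21126270, with 118560 to 239780 bp in the LPS lists.

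**Figure D3:**
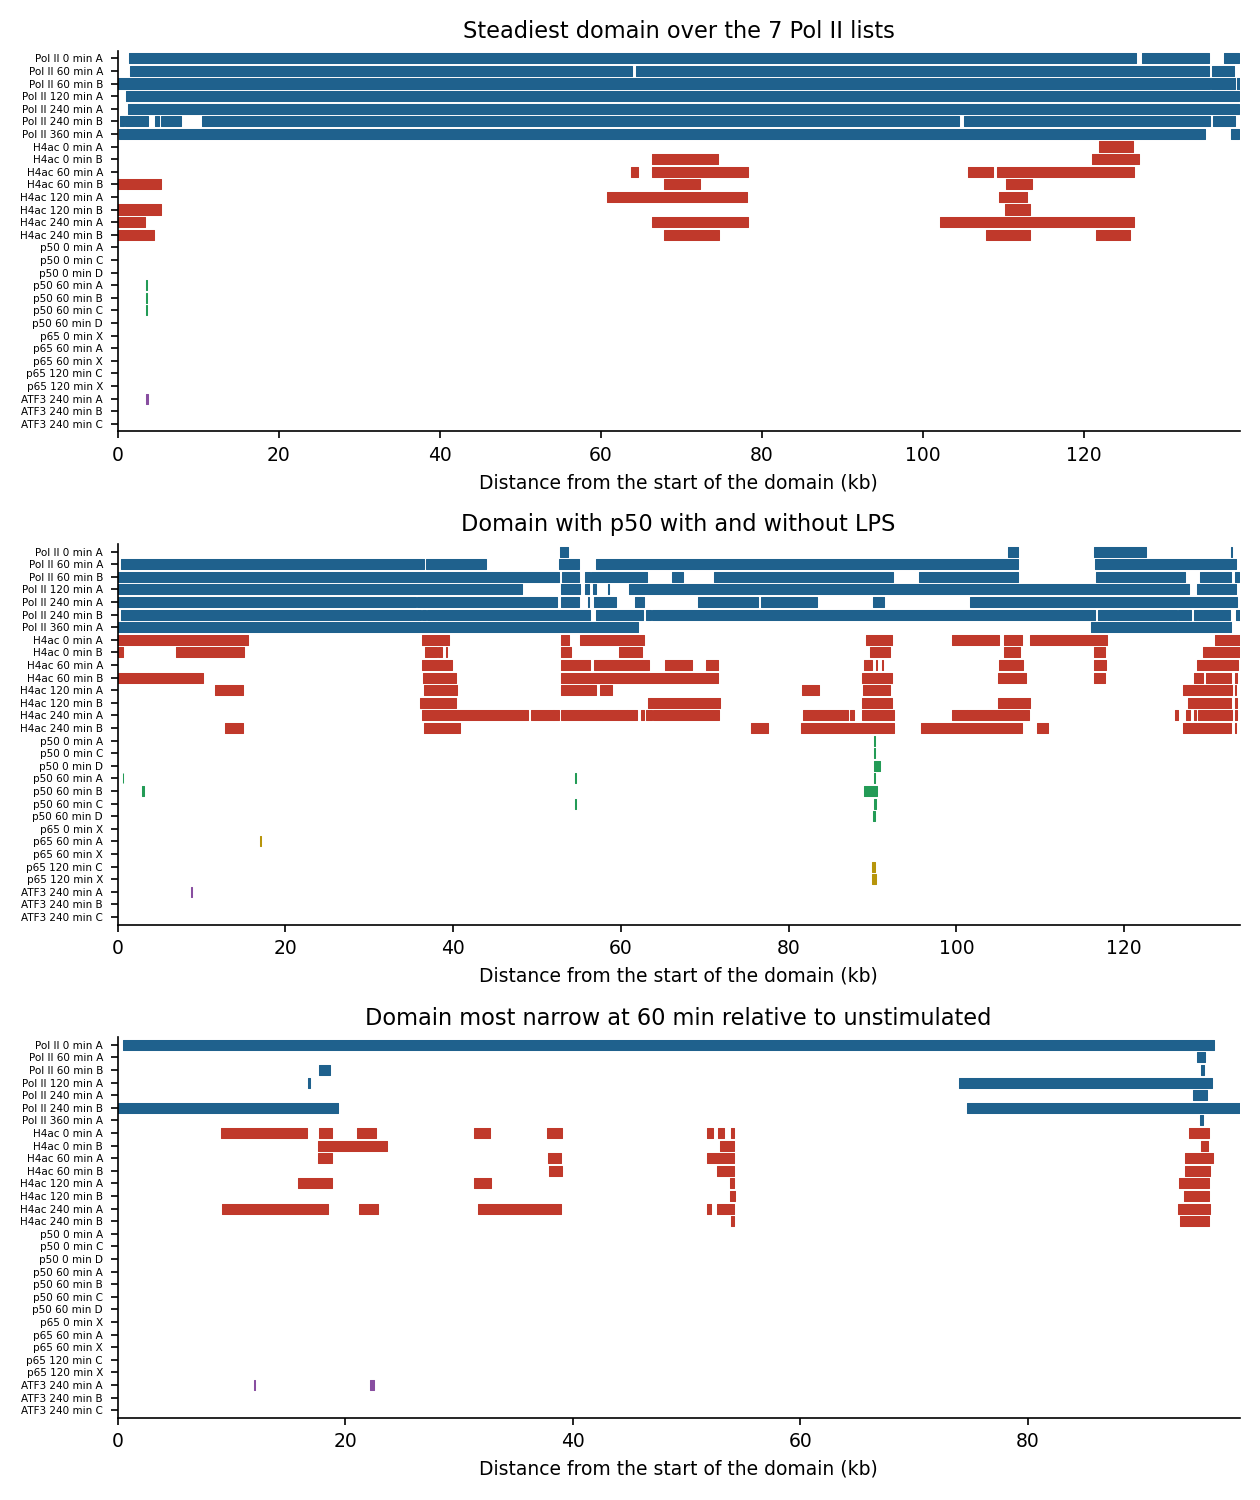
Regions of Pol II, H4ac, p50, p65 and ATF3 lists in 3 domains, by distance in kb from the start of the domain: chr2:44833761-44973080 (steadiest, top), chr2:152934131-153067910 (p50 with and without LPS, middle) and chr19:43731971-43830570 (most narrow at 60 min relative to unstimulated, bottom). Each row is 1 library and bars are listed regions; Pol II spans the top domain in all 7 lists, while in the bottom domain a bar of the unstimulated list spans nearly all of it, and the 120 min list and letter B of 240 min have shorter bars.

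H4ac, which the rule did not use, was found in nearly all domains. Each of the 8 H4ac lists had a region in 92.8% to 97.5% of domains, against 65.8% to 82.7% of joined regions of 1 to 6 lists. All 8 lists had one in 594 domains (84.0%), where the share over all joined Pol II regions was 54.3%, and 3 domains had none (9.29% of all joined regions). H4ac that appeared with LPS, in all 6 LPS lists and neither unstimulated one, was found in 6 domains (0.849%, against 0.770% of all joined regions), and the opposite, both unstimulated lists and no LPS list, in 1 domain (0.141%, against 1.17%). Because domains are wider and so easier to touch, covered bases were compared. H4ac covered 13.4% and 10.9% of domain bases without LPS (A and B), 14.0% and 10.8% at 60 min, 13.5% and 11.0% at 120 min, and 15.6% and 12.3% at 240 min. Letter A was above letter B at each time.

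In the joined regions of 1 to 6 lists the mean over libraries was 8.85%, against 12.7% in the domains. The difference of 3.84 percentage points (SD 0.862, n = 8) was positive in 8 of 8 libraries, with an exact two-sided sign-flip permutation p of 0.0078, the smallest possible, and a Benjamini-Hochberg adjusted p of 0.0391 over 5 targets. Against joined regions of 4 to 6 lists, which are closer in width, it was 3.16 points with the same adjusted p. The direction turned when only the middle base of each region was asked for, to a difference of -24.7 points (adjusted p = 0.0391, exact sign-flip permutation). Letter A of the unstimulated H4ac libraries, for instance, covered the middle base of 12.0% of domains and 41.4% of other joined regions.

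H4ac lay unevenly inside the domains. Each domain was split into 10 bins of equal length, and averaged over domains H4ac covered 25.9% of the 2 outermost bins and 12.3% of the 2 innermost bins. The difference was 13.6 points (SD 1.00, n = 8), positive in 8 of 8 libraries (exact sign-flip permutation p = 0.0078, adjusted p = 0.0391). Without LPS the outer bins had 28.3% and 25.4%, and at 240 min 28.7% and 25.3%, so the ends were the richer part at every time. In domains joined from Pol II regions up to 10 kb the difference was -3.41 points (adjusted p = 0.156, exact permutation). With H4ac regions of every width it was -0.149 points (adjusted p = 0.891, exact permutation). The difference between ends and middle was therefore not seen in those 2 settings, while in domains of at least 20 kb it was 13.4 points (adjusted p = 0.0391, exact permutation). The p50 subunit was also higher in the outer bins (means 0.345% and 0.196%, 7 of 7 libraries, exact permutation adjusted p = 0.0391), but without any 1 library, or with its better-scored 50%, it did not pass. With each domain split at its middle, the side richer in H4ac was the same in all 8 lists in 290 of the 574 domains (50.5%) whose sides were unequal in each list.

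The core was richer in H4ac than the rest of the domain. H4ac covered 17.0% and 14.8% of core bases without LPS (A and B), 20.7% and 16.8% at 60 min, 20.5% and 16.8% at 120 min, and 21.4% and 17.9% at 240 min. In the rest of the domain the range was 9.46% to 14.3%. The mean difference was 6.81 points (SD 1.47, n = 8), positive in 8 of 8 libraries (exact sign-flip permutation p = 0.0078, adjusted p = 0.0391). Without any 1 of the libraries the adjusted p was 0.0781, since 7 libraries cannot give a p below 0.0156.

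**Figure D4:**
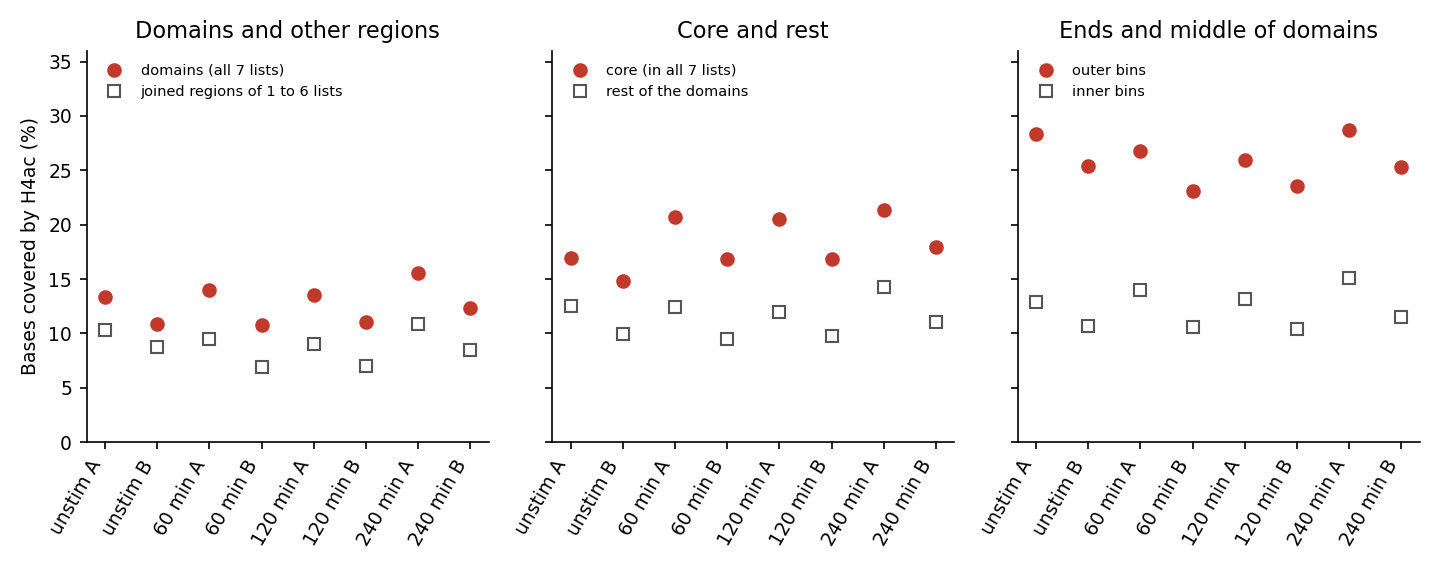
Percent of bases covered by H4ac regions in each of the 8 H4ac libraries, for domains and other joined Pol II regions (left), for the core and the rest of the domains (middle) and for the outer and inner bins of the domains (right). Each symbol is 1 library; the filled symbol is the higher of the pair in all 8 libraries in each panel.

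Total H4ac coverage of the domains did not differ between LPS and unstimulated libraries beyond their spread. The mean was 12.9% in the 6 LPS libraries and 12.1% in the 2 unstimulated ones, a difference of 0.753 points (exact two-sided permutation p = 0.571, smallest possible 0.0714). The excess of domains over other joined Pol II regions was 3.06 and 2.14 points without LPS and 3.83 to 4.72 points in the 6 LPS libraries, a difference of 1.65 points. Within a letter, H4ac coverage of the domains differed from unstimulated by -0.066 to 2.24 points, and that of the other joined regions by -1.83 to 0.582 points. Of the joined regions of 1 to 6 lists, 59.4% were held by the unstimulated list, 1299 of them by that list alone, so the makeup of the compared regions bears on the excess and it is given as a description. Against only those that include the unstimulated list, it was 0.865 and 0.174 points without LPS and 3.41 to 4.18 points with it, a difference of 3.31 points. Against joined regions of 4 to 6 lists the difference was 0.924 points. The excess of core over rest, which uses no regions outside the domains, was 4.42 and 4.84 points without LPS and 6.88 to 8.55 points with it. The difference was 2.90 points (exact permutation p = 0.0714, the smallest this design allows, which does not pass 0.05). Of the 7 Pol II lists that set the core, 6 are LPS lists. The makeup of the core thus bears on this excess too, and no conclusion is drawn from the test.

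H4ac was also set against the direction of the Pol II width. In the 332 domains wider at 60 min, H4ac covered 12.6% and 9.97% of bases without LPS (A and B) and 14.4% and 11.8% at 60 min. In the 212 narrower ones it covered 15.3% and 12.7% without LPS and 13.8% and 10.6% at 60 min. Both letters were thus higher after LPS in the first set and lower in the second. At 240 min the 358 wider domains had 11.8% and 9.85% without LPS and 15.7% and 13.1% at 240 min, and the 178 narrower ones 16.1% and 12.4%, then 15.2% and 11.6%. An exact permutation of 2 against 2 libraries cannot give a p below 0.05, and these values are a description.

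The p50 subunit touched 7.07%, 6.79% and 3.25% of domains without LPS (A, C and D). At 60 min it touched 24.8%, 19.4%, 22.6% and 3.96% (A, B, C and D). Libraries A, B and C of 60 min lay above every unstimulated library, and D lay among them. The difference between the means was 12.0 points (17.7% and 5.70%, exact two-sided permutation p = 0.171, smallest possible 0.0571), so the groups overlapped through library D. Without D of 60 min it was 16.5 points, with a p of 0.1 that is the smallest exact permutation value 3 against 3 libraries allow.

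Over all 7 p50 libraries, p50 covered more of the domains than of other joined Pol II regions, with means of 0.120% and 0.0451% of bases. The difference was positive in 7 of 7 libraries (exact sign-flip permutation p = 0.0156, adjusted p = 0.0391), and without any 1 library the adjusted p was 0.0781. Any p50 list had a region in 236 domains (33.4%, against 12.2% of all joined Pol II regions). The other 471 had none (66.6%, against 87.8%). In 48 domains (6.79%, against 2.09%) p50 was in 3 or 4 of the LPS lists and absent without LPS. In 34 (4.81%, against 1.21%) it was in 3 or 4 LPS lists and in 2 or 3 lists without LPS. A single domain had it in 2 or more unstimulated lists but in none after LPS (0.141%, against 0.0502%). Domains are wider than other joined regions, so these shares of regions touched, and those of the other targets below, are not matched for width.

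The domains with p50 were wider than the others, and the 2 p50 sets were also wider at 60 min than without LPS. The 471 domains without p50 had a median joined width of 45680 bp and median 60 min to unstimulated ratios of 1.00 and 1.05 (A and B). The 48 with p50 after LPS alone had a median joined width of 83220 bp and ratios of 1.21 and 1.91. In both lists 32 of them (66.7%) were wider and 7 (14.6%) narrower. The 34 with p50 before and after LPS had 60230 bp, ratios of 1.25 and 1.50, and 21 wider (61.8%) against 4 narrower (11.8%). In domains without p50, 200 were wider (42.5%) and 152 narrower (32.3%). The shares were 47.0% and 30.0% over all domains. They were 45.1% and 30.7% over all joined regions held by the unstimulated and 60 min lists. These widths belong to the lists that chose the domains and carry no test. The joined width includes the 60 min lists and a wider domain is easier to touch, so a domain that is wide at 60 min is also more likely to fall in a p50 set.

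Domains with p50 in both states included chr2:152934131-153067910, where all 7 p50 lists had a region at about 90 kb from the start of the domain, between 88940 and 90890 bp. Pol II covered 8410 bp of this domain without LPS and 78640 to 130370 bp in the 6 LPS lists, so the unstimulated list was far below the others. The p65 libraries C and X of 120 min had a region at the same place. At chr19:46377171-46471800 all 7 p50 lists again had a region, while Pol II covered 93960 bp without LPS and 12010 to 21990 bp after it. Its best-scored Pol II region ranked 2857 without LPS, 169 and 229 at 60 min, 276 at 120 min and 1213 to 1700 from 240 min on. The narrower lists of 60 and 120 min thus held a better-ranked region than the unstimulated list. The 360 min list had 2636 regions up to 100 kb and the unstimulated list 6715, so their ranks are not on a common scale. H3K27me3 was present in all 5 lists of that domain, over 4550 bp without LPS and 12400 to 14930 bp in the LPS libraries. Wider and narrower Pol II cover were thus both seen at domains with p50 in both states. In the steadiest domain, p50 libraries A, B and C of 60 min each had a region about 3.5 kb from the start (3540 to 3710 bp), and no unstimulated p50 list had one.

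The p65 subunit touched 3.39% of domains without LPS, 12.6% and 5.37% at 60 min (X and A) and 9.76% and 7.07% at 120 min (X and C). The p65 lists X of 60 and 120 min, with the higher shares, held 782 and 814 regions, and A and C held 2285 and 2110. At least 1 p65 list had a region in 169 domains (23.9%, against 9.03% of all joined Pol II regions). In 40 domains (5.66%, against 1.61%) letter X had p65 at both 60 and 120 min and not without LPS. It covered more of the domains than of the other joined regions in 5 of 5 libraries (means 0.182% and 0.0368% of bases, adjusted p = 0.104, exact sign-flip permutation). Within the letter X series, p65 covered 1.52% of core bases and 0.147% of the rest at 60 min, and 1.22% and 0.187% at 120 min. Library A of 60 min had 0.0236% in the core and 0.0430% in the rest, so the 5 libraries did not share a direction (4 higher in the core, adjusted p = 0.156, exact permutation). The widest p65 cover named was in chr11:83314291-83480510, with 16970 and 14840 bp in library X at 60 and 120 min, and 0 to 530 bp in the other 3 p65 libraries.

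ATF3 at 240 min touched 38.9%, 4.81% and 7.92% of domains (A, B and C), with library A far above the other 2. At least 1 ATF3 list had a region in 302 domains (42.7%, against 18.6% of all joined Pol II regions), and all 3 lists had one in 5 (0.707%, against 0.184%). Its coverage of the domains was above that of other joined regions in 3 of 3 libraries, where the smallest possible p is 0.25 (adjusted p = 0.25, exact permutation). The mean difference was 0.104 points with all 3 libraries and 0.0205 without library A.

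**Figure D5:**
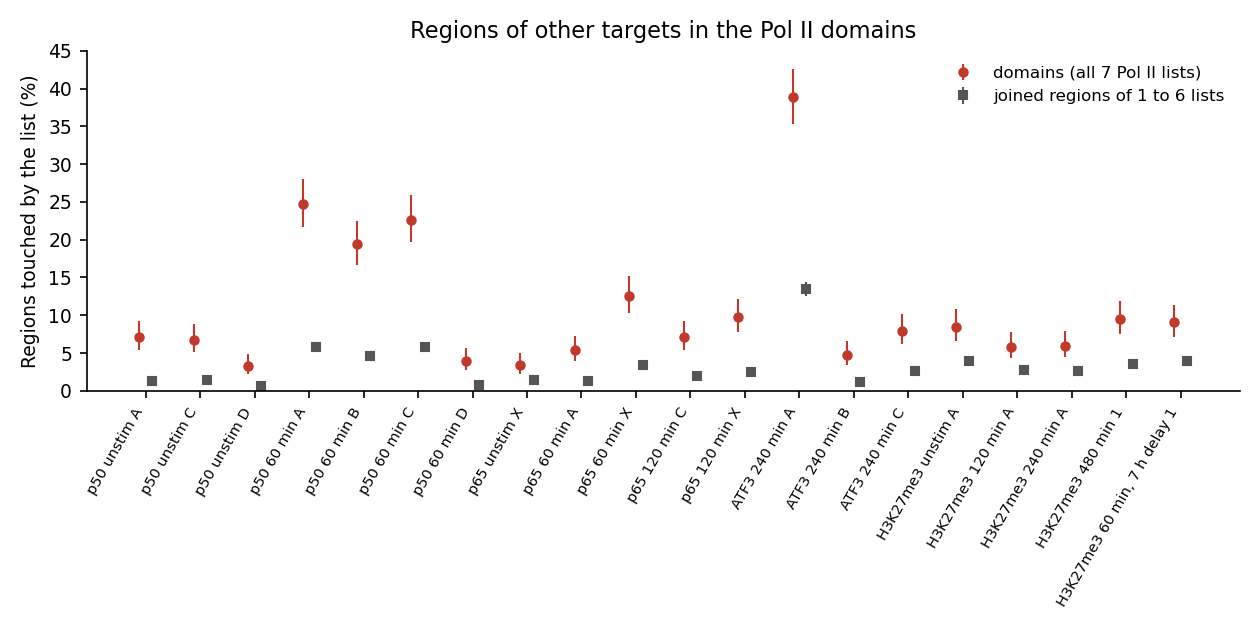
Percent of regions touched by each p50, p65, ATF3 and H3K27me3 list, for the 707 domains (circles) and the 5264 joined Pol II regions of 1 to 6 lists (squares). Bars are 95% Wilson intervals, which cover counting error over regions only. The domains lie above the other regions in all 20 libraries, but they are wider and the shares are not matched for width. Library D of p50 at 60 min lies with the unstimulated p50 libraries, and ATF3 library A is the highest at 38.9%.

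H3K27me3, the Polycomb mark usually found at silent genes, was present at a minority of domains. It touched 8.49% of domains without LPS, 5.80% at 120 min, 5.94% at 240 min, 9.48% at 480 min and 9.05% in the library with the 7 h delay. In covered bases the domains had 1.29% and the other joined regions 1.00%, with the domains higher in 4 of 5 libraries (adjusted p = 0.156, exact sign-flip permutation). In domains joined from Pol II regions up to 10 kb the difference was -0.123 points, the opposite direction. At least 1 list had H3K27me3 in 98 domains (13.9%, against 7.55% of all joined regions). All 5 lists had it in 21 domains (2.97%, against 1.37% of all joined regions). By the smallest cover over the 5 lists the first of these was chr14:54979231-55068390, with 12310 to 18490 bp, where Pol II covered 20730 to 89120 bp over the 7 lists and all 8 H4ac lists had a region.

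Inside the domains, H3K27me3 was lower in the core than in the rest in 4 of 5 libraries, with means of 0.666% and 1.43% (adjusted p = 0.156, exact sign-flip permutation). The exception was the 120 min library, with 1.13% and 0.916%. The p50 subunit was higher in the core in 6 of 7 libraries (means 0.209% and 0.0999%, adjusted p = 0.0781, exact permutation). Neither difference passed the threshold of 0.05. With p50 regions of every width the sign of that difference turned, to -7.28 points (adjusted p = 0.0391, exact permutation).

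At least 1 list of each of the 5 other targets had a region in 22 domains (3.11%, against 0.519% of all joined Pol II regions). This share is not matched for width, with a median of 51980 bp in domains and 4700 bp in joined regions of 1 to 6 lists. Against the latter, mean covered bases were higher in the domains for all 5 targets. The middle base was covered less often in the domains for all 5.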

How the data were processed

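ChIP-seq regions of 35 libraries were deposited as 1 list per library, each row with a position, a scale number and a score. The score is the authors' own, as deposited, with no unit stated. Genome build mm9 is named in the submitters' processing notes. The aligner and the region caller with its settings are not stated in the labels or file headers. Depth per library is unknown. Coordinates are 1-based.

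Lists are nested. Regions up to 100 kb (Pol II, H3K27me3) or 10 kb (other targets) were used, and overlaps of at least 1 bp counted. Width is the number of bases of a domain covered by a list. The core is the bases covered by all 7 Pol II lists. For each library the percent of bases covered was taken, and exact two-sided permutation tests ran over libraries (sign-flips between region classes, label permutation between LPS and unstimulated), adjusted over 5 targets by Benjamini-Hochberg, with a threshold of 0.05. The scripts (Python 3.11.15, numpy 2.4.6, scipy 1.17.1, matplotlib 3.10.9) were tested on simulated lists.

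The members and lists were chosen with earlier results of these data known. Comparisons of core and rest, ends and middle, excess of H4ac, and sets by p50 or width change were added after the lists had been examined. Named domains are the 10 widest by median, the 5 most changed each way at 60 and 240 min by the less changed list, the 5 steadiest, those with p50 in at least 3 LPS and 2 unstimulated lists, those with most H3K27me3, the best ranked, and those nearest the rule's edge. The text gives a selection of these, made with their values in view. No annotation of mm9 was used, so gene lists and marker genes could not be applied and no sequence is printed. The letters of titles are not stated to pair libraries.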

Additional observations from a re-analysis of the deposited data

How the results depend on the processing

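Of 288 recomputed values, 207 kept their direction and their side of the threshold or stayed within the set range. Of the others, 24 reversed direction, 32 left the set range, 24 no longer passed the threshold and 1 newly passed it. The number of domains was 293 with Pol II regions up to 10 kb, 278 with every width, 371 with the better-scored 50% of each list and 409 with lists of equal length. Leaving out 1 list gave 726 to 931, the highest without the 360 min list. The mean LPS to unstimulated ratio of median widths was 0.915 with the widest single region, 1.66 with lists of equal length, and 0.979 to 1.17 leaving out 1 LPS list. The unstimulated list could not be left out of the width results. Domains wider at 60 min numbered 142 with regions up to 10 kb and 200 with the better-scored 50%. Narrower ones numbered 84, 104 and, with equal lengths, 116, and 262 to 322 with 1 list left out. At 240 min, wider domains numbered 148, 198 and 212 under the same 3 settings, and narrower ones 66, 97 and 116, or 236 to 289 with 1 list left out. Fewer regions or lists enter these settings, other than those with every width, which adds regions, and with the widest single region.

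The letters are not stated to pair libraries, and letter A of H4ac exceeded letter B at all 4 times. As a replicate block, letter A alone gave a width ratio of 0.909 and 322 and 289 narrower domains at 60 and 240 min. With labels permuted within letters (replicate block), LPS minus unstimulated was 0.753 points for H4ac (exact permutation p = 0.25) and 11.4 points for p50 (p = 0.25, exact permutation). Neither of these 2 tests passed the threshold with or without the block.

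For H4ac, LPS minus unstimulated was -0.967 points in domains touched and -0.485 to 1.99 points leaving out 1 library, negative without unstimulated B. By the middle base, domains minus other regions was -24.7 points for H4ac, -0.0663 for p50, -0.0789 for p65, -0.236 for ATF3 and -0.257 for H3K27me3. With Pol II regions up to 10 kb it was -0.123 for H3K27me3. Leaving out 1 p50 library gave 0.0552 to 0.0865 points. Core minus rest with targets of every width was -7.28 points for p50, -4.53 for p65 and -3.28 for ATF3. It was 0.0476 for the better-scored 50% of p50, which passed, and 0.243 for H3K27me3 with Pol II regions up to 10 kb. Leaving out 1 library gave 6.56 to 7.15 points for H4ac. Outer minus inner bins with targets of every width was -0.149 points for H4ac, -0.00586 for p50 and -0.410 for p65. With Pol II regions up to 10 kb it was -3.41 for H4ac, 0.241 for p50, -1.06 for p65, -0.251 for ATF3 and -0.0822 for H3K27me3. For p50 it was 0.0452 with the better-scored 50% and 0.0907 to 0.171 leaving out 1 library. The width ratio at 60 min turned to 3.62 at chr12:52447411-52560330 and 1.11 at chr2:29987941-30010210 with the better-scored 50%. The causes were not tested.

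Depth is unknown, so fewer reads and less Pol II cannot be told apart for a region absent from a short list such as that of 360 min. With 1 unstimulated Pol II library, widths have no replicate check before LPS.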
